A study of Mus musculus with 12 samples.

Results

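The 9 genes described here are transcription factors that mark regions along the front-to-back axis of the developing brain: Emx1, Emx2, Otx2, En1, En2, Gbx2, Pax2, Lmx1b and Atoh1. They were picked by gene symbol, and all 9 of the 9 were found among the 46078 genes of the deposited tables. RNA from the brains of mouse embryos at E15.5 (embryonic day) was sequenced to ask which genes change when NSD2, an enzyme that methylates histone H3 at lysine 36, is lost. The groups were Nsd2 KO females, WT females, Nsd2 KO males and WT males, with 3 libraries each and 12 in all. The Nsd2 KO mice were made with CRISPR/Cas9 genome editing and lack the whole coding sequence of Nsd2 in every tissue, and mice of both genotypes were kept on the C57BL/6 background. The tissue was labelled only as brain, and the regions it held were not stated per library.

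Early in development the neural tube is divided into territories by such factors. Emx1 and Emx2 are homeobox factors of the dorsal telencephalon, the part that forms the cerebral cortex. Otx2 marks the forebrain and midbrain, and Gbx2 the anterior hindbrain. The border between them becomes the isthmic organizer, a signalling centre whose factors include Pax2, En1, En2 and Lmx1b. Later, En1 and Lmx1b also mark dopamine neurons of the midbrain, Lmx1b marks serotonin neurons of the hindbrain, Pax2 and Lmx1b mark inhibitory and excitatory neurons of the dorsal hindbrain and spinal cord, and Atoh1 drives the granule cell lineage of the rhombic lip.

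Library totals lay between 40398665 counts in WT female 2 and 59304196 counts in WT female 3. Values are given as CPM, read counts scaled to a common library total after TMM, a correction for differences in library makeup. Nsd2, listed as Whsc1, checked the labels: it was at 1.87 ± 0.688 CPM in KO females and 388.4 ± 34.8 CPM in WT females, and at 1.17 ± 0.231 CPM in KO males and 368.5 ± 8.65 CPM in WT males (SD, n = 3 each). The 8 embryonic brain markers, among them Sox2 and Dcx, summed to between 5157 and 5899 CPM in every library. Hoxa5, a gene of the caudal hindbrain and spinal cord, separated the libraries within each genotype. It was at 13.2 to 53.8 CPM in 3 KO and 3 WT libraries and under 1 CPM in the other 3 KO and 3 WT libraries, with 0 counts in KO male 3 (the limit that 3 counts allow is 0.0509 CPM). The genotypes were balanced in this only over both sexes: the libraries at or above 1 CPM were 1 of 3 KO and 2 of 3 WT in males, and 2 of 3 KO and 1 of 3 WT in females. The log2 fold change was above 0 for 0 of 18 Hox genes tested in males (median -2.62) and for 19 of 19 in females (median 1.01), with 0 called in either sex in edgeR. In a single sex, genotype and Hoxa5 level are thus partly confounded. WT female 1 stood apart for the genes described here: of the 12 libraries it had the highest Emx2, Otx2, En1, En2 and Lmx1b and the lowest Emx1 and Gbx2, at a total of 54460625 counts. The summed level of 13 midbrain genes was 607.8 CPM in WT female 1 and between 112.8 and 395.4 CPM in the other 11 libraries. Much of this sum was Tfap2b, at 411.3 CPM in WT female 1 and 40.62 to 284.2 CPM in the other 11. Each of the 13 genes except Nr4a2 and Helt was highest in WT female 1. For the main fits per sex and over both sexes, a printed fold change of the 9 genes is therefore also given without this library where that changed its direction. Fold changes with the Hoxa5 level in the fit, or in subsets by Hoxa5, were not refitted without it. In whole tissue, fewer cells of a type and less RNA per cell cannot be told apart.

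Per kilobase of annotated exon, which allows genes to be compared, Emx1 had the highest mean level of the 9 at 9.65 ± 2.30 CPM per kb (SD, n = 12 libraries). En2 followed at 8.60 ± 4.004, Emx2 at 7.93 ± 1.89, Otx2 at 7.87 ± 2.80, En1 at 6.47 ± 2.48 and Gbx2 at 5.38 ± 1.57 CPM per kb. Lmx1b was at 3.495 ± 1.40, Pax2 at 2.54 ± 1.96 and Atoh1 at 1.20 ± 0.695 CPM per kb. The gap between Gbx2 and Lmx1b was wider than either gene's SD, whereas every other pair of neighbours in this order lay closer together than the SD of at least one of the pair. All 9 genes passed the count filter in each comparison. They varied more between libraries of the same group than most genes did: the SD of log2 CPM within groups was 0.345 for Emx2, 0.388 for Emx1 and 0.539 to 0.584 for Otx2, Gbx2, Lmx1b, En1 and En2, against a median of 0.192 over all genes tested. Pax2 at 1.70 and Atoh1 at 2.09 varied most, and the share of genes of like abundance with a smaller SD was between 94.96% for Emx2 and 99.8% for Pax2.

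**Figure D1:**
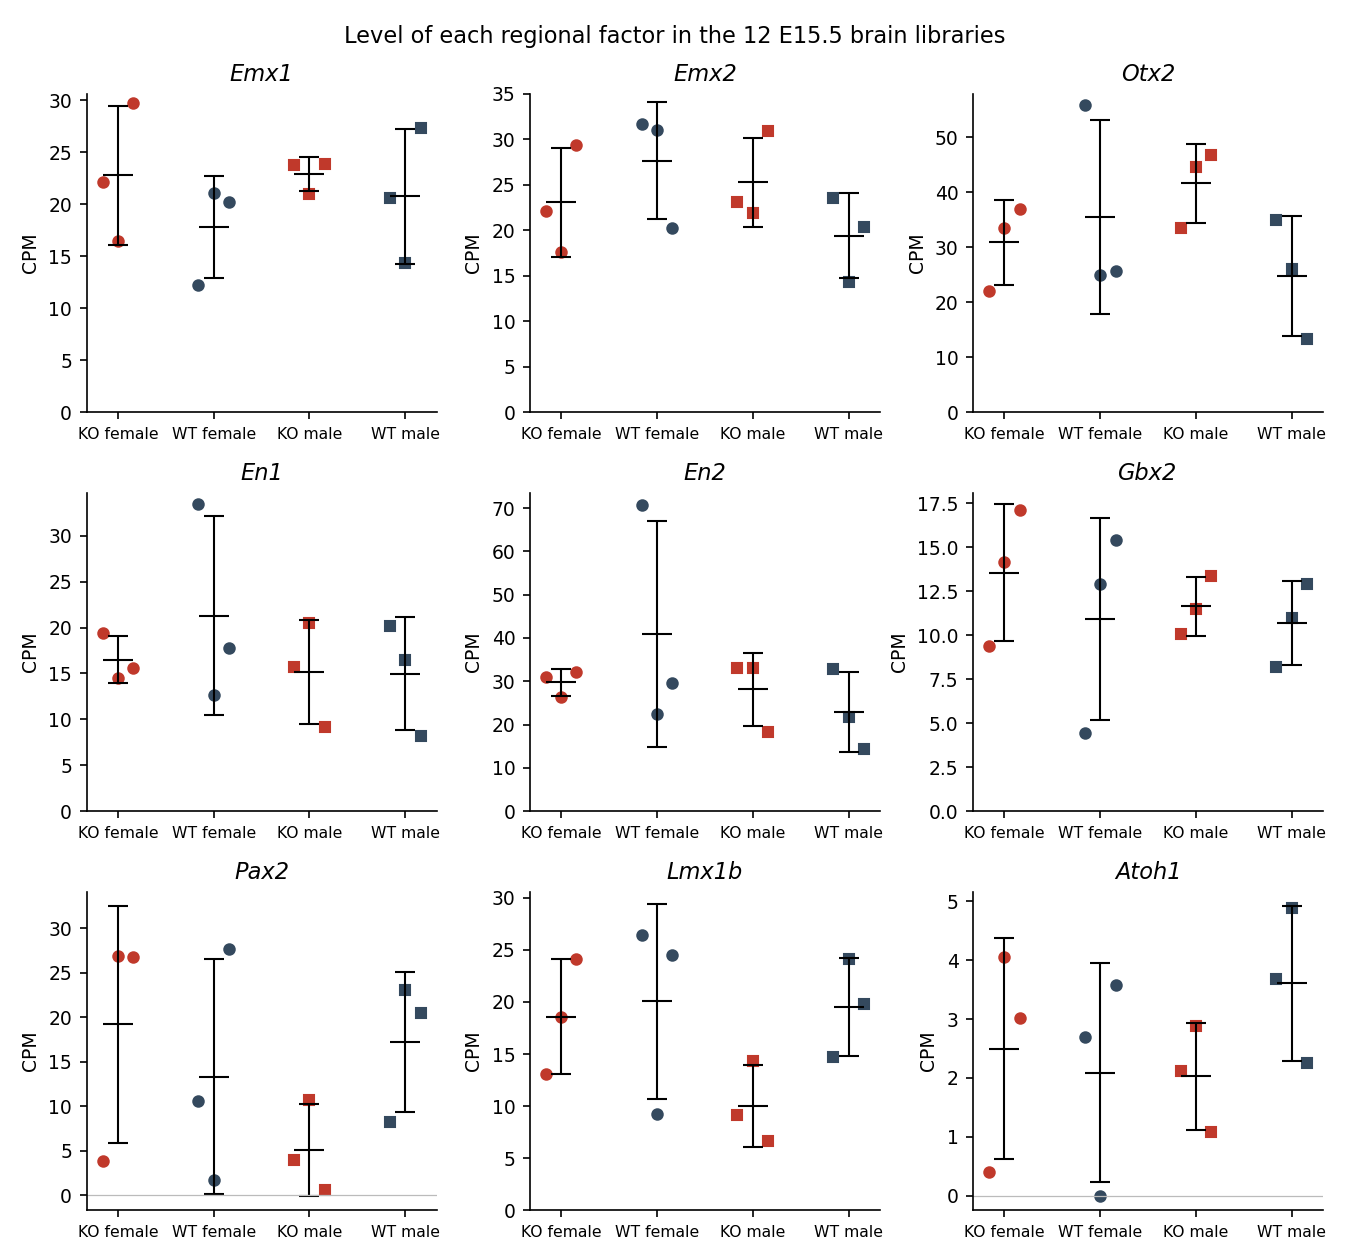
Level of each of the 9 regional factors in CPM (vertical axes) in the 12 libraries, by genotype and sex. Points are libraries, in the order of their replicate numbers, and horizontal lines with bars are the mean and SD of 3 libraries. The 3 KO males lie below the 3 WT males for Lmx1b (6.67 to 14.3 CPM in KO, 14.7 to 24.1 CPM in WT), and 1 WT female library has the highest En1 (33.45 CPM) and En2 (70.75 CPM).

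Among the forebrain factors, Emx1 was not called between KO and WT in edgeR. Its level was 22.2, 16.4 and 29.8 CPM in KO females 1 to 3, against 12.2, 21.1 and 20.2 CPM in WT females 1 to 3. In males it was 23.8, 21.0 and 23.9 CPM in KO, against 20.6, 14.4 and 27.4 CPM in WT. The groups overlapped in both sexes, and the KO over WT log2 fold change was 0.36 in females, 0.14 in males and 0.25 over both sexes (95% interval -0.16 to 0.66). Emx2, which acts in cortical progenitors with Emx1 and also in the hippocampal field, was at 22.1, 17.6 and 29.4 CPM in KO females, against 31.65, 30.9 and 20.2 CPM in WT females. It was at 23.1, 21.8 and 30.8 CPM in KO males, against 23.5, 14.3 and 20.3 CPM in WT males. Its log2 fold changes were thus opposite in sign, -0.26 in females and 0.39 in males, and over both sexes it was 0.06 (95% interval -0.36 to 0.48). The test of the difference between the sexes gave an edgeR adjusted p of 0.91 for Emx2. The Emx2 to Emx1 ratio of CPM within a library lay between 0.970 and 1.29 in the 6 KO libraries and between 0.742 and 2.59 in the 6 WT libraries, the last being WT female 1. An antisense transcript, Emx2os, overlaps Emx2 and was at 1.59 to 6.54 CPM. Since the strand setting of the counting is not stated, reads of Emx2 and Emx2os cannot be told apart where they overlap.

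Otx2, the forebrain and midbrain factor, was at 22.1, 33.5 and 37.0 CPM in KO females, against 55.9, 25.0 and 25.8 CPM in WT females. In males it was at 33.5, 44.6 and 46.8 CPM in KO, against 34.95, 26.1 and 13.3 CPM in WT. KO males were the higher group, with 1 WT library inside their range, and the male log2 fold change was 0.75 (SE 0.364) with an edgeR adjusted p of 0.488. The female log2 fold change was -0.21, and it was 0.28 without WT female 1. Otx2 is also made in choroid plexus and in the eye and pineal gland. Choroid plexus markers summed to 259.9 to 883.1 CPM in KO libraries and 226.0 to 947.8 CPM in WT libraries. Eye and pineal markers summed to between 7.59 and 16.7 CPM, with the pigment cell gene Tyr under 0.1 CPM in every library. Their part in the Otx2 values was not tested.

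Gbx2, which opposes Otx2 from the hindbrain side and is also made in the thalamus, was at 9.395, 14.2 and 17.1 CPM in KO females, against 4.47, 12.9 and 15.4 CPM in WT females. In males Gbx2 was at 10.1, 11.5 and 13.4 CPM in KO, against 8.19, 10.99 and 12.9 CPM in WT. The groups overlapped in both sexes. The log2 fold change was 0.32 in females (-0.06 without WT female 1), 0.12 in males and 0.22 over both sexes (95% interval -0.35 to 0.79). An antisense gene, D130058E05Rik, shares 41.5% of the stretches of 75 bases of Gbx2, and its own level was 0.309 to 1.03 CPM. As for Emx2os, reads of Gbx2 and D130058E05Rik cannot be told apart where they overlap. Within a library, the ratio of Otx2 to Gbx2 CPM lay between 2.16 and 3.89 in KO and between 1.03 and 12.5 in WT. Both ends of the range were thus WT libraries, the lowest being WT male 3 and the highest WT female 1.

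En1 and En2 are the engrailed homeobox factors of the midbrain and anterior hindbrain and share much of their function. En1 was at 19.4, 14.6 and 15.6 CPM in KO females, against 33.45, 12.6 and 17.8 CPM in WT females. In males En1 was at 15.7, 20.45 and 9.18 CPM in KO, against 20.2, 16.5 and 8.18 CPM in WT. The groups overlapped throughout. En2 was at 30.95, 26.3 and 32.2 CPM in KO females, against 70.75, 22.5 and 29.5 CPM in WT females, and at 33.0, 33.1 and 18.3 CPM in KO males, against 32.7, 21.65 and 14.4 CPM in WT males. En2 was highest by far in WT female 1, and KO males 1 and 2 and WT male 1 were level with each other. Over both sexes the log2 fold change was -0.18 (95% interval -0.82 to 0.46) for En1 and -0.08 (95% interval -0.80 to 0.63) for En2, and without WT female 1 it was 0.06 for En1 and 0.25 for En2.

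Both engrailed genes moved together from library to library. The En2 to En1 ratio of CPM was 1.60 to 2.097 in KO libraries (median 1.90) and 1.31 to 2.12 in WT libraries (median 1.71), a span of 1.61-fold, while En2 itself spanned 4.91-fold. Among the 36 pairs of the 9 genes, En1 and En2 had the highest correlation of log2 CPM over the 12 libraries (Pearson r = 0.933, permutation p = 8e-05, adjusted over the 36 pairs 0.00198). Spearman's rho was 0.818 (permutation p = 0.0018, adjusted 0.0596), which missed 0.05 after adjustment. Pearson's r was 0.811 without the 2 libraries farthest from the median En1 level. Within a sex r was 0.904 in males (exact permutation p = 0.0125, n = 6) and 0.965 in females (exact permutation p = 0.00972, n = 6). No stretch of 75 bases is shared between En1 and En2 transcripts. The En1 promoter window is shown because it was the only window of those nearest the annotated starts of these genes to hold a TGACAG match, the letters bound by MEIS factors. Capitals mark that match, on the reverse strand as CTGTCA, in the 300 bases at chr1:120602237-120602536 (plus strand, GRCm38.p6, from RefSeq, 250 bases before to 50 after the start).
En1: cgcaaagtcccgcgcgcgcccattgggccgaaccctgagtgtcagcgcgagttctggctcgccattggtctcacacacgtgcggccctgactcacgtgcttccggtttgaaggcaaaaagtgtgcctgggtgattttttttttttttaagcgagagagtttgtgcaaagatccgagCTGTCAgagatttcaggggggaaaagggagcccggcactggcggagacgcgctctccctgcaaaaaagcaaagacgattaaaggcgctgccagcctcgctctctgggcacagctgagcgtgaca
Of 32851 windows of that length, 19.2% hold TGACAG on either strand. A match is a description of letters and no evidence of binding.

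Pax2, an early factor of the isthmic organizer, varied more in level than any other of the 9 apart from Atoh1. It was at 3.83, 26.9 and 26.8 CPM in KO females, against 10.6, 1.68 and 27.7 CPM in WT females. In males Pax2 was at 3.91, 10.7 and 0.631 CPM in KO, against 8.19, 23.0 and 20.45 CPM in WT. High and low libraries occurred in both genotypes, and the span over the 12 was 43.9-fold. The log2 fold change was 0.52 (SE 1.18) in females and -1.76 (SE 1.02) in males, with edgeR adjusted p of 0.943 and 0.561. With the Hoxa5 level of each library in the fit, the male value was -0.60 and the female value -0.38.

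Lmx1b, a LIM homeobox factor, was at 13.1, 18.6 and 24.1 CPM in KO females, against 26.4, 9.27 and 24.5 CPM in WT females. In males it was at 9.10, 14.3 and 6.67 CPM in KO, against 14.7, 24.1 and 19.8 CPM in WT. All 3 KO males lay below all 3 WT males, the closest being KO male 2 and WT male 1. Lmx1b was the only one of the 9 genes whose male groups did not overlap, and in males 17.3% of all genes tested had groups that did not overlap. In females (14% of all genes tested) and over both sexes (1.81%) the libraries of KO and WT overlapped for all 9 genes. The male log2 fold change was -0.96 (SE 0.314, 95% interval -1.72 to -0.20), which missed the threshold in edgeR (unadjusted p = 0.0214, adjusted p = 0.339). DESeq2 gave the same size with an adjusted p of 0.0107, the range over all alternatives being 0.0107 to 0.966. With the Hoxa5 level in the fit, the male value was -0.44 (edgeR adjusted p = 0.966). In females the log2 fold change was -0.11 (SE 0.408) and without WT female 1 it was 0.14, and the test of the difference between the sexes gave -0.85 (SE 0.576, edgeR adjusted p = 0.91).

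Pax2 and Lmx1b formed the other pair whose r passed the adjusted threshold. Their log2 CPM correlated over the 12 libraries with r = 0.912 (permutation p = 0.00011, adjusted over the 36 pairs 0.00198) and rho = 0.769 (permutation p = 0.00497, adjusted 0.0596), and r was 0.806 without the 2 libraries farthest from the median Pax2 level. Within a sex r was 0.961 in males (exact permutation p = 0.00278, n = 6) and 0.863 in females (exact permutation p = 0.0375, n = 6). In the 6 libraries under 1 CPM of Hoxa5, r was 0.885 (exact permutation p = 0.0236, n = 6) and rho 0.829 (exact permutation p = 0.0583). In the 6 at or above 1 CPM, r was 0.838 (exact permutation p = 0.05, n = 6) and rho 0.6 (exact permutation p = 0.242). No pair of the 36 other than En1 with En2 and Pax2 with Lmx1b had an adjusted p under 0.05 for r. Pax2 with Atoh1 had r = 0.666 (permutation p = 0.0226, adjusted 0.143) and rho = 0.783 (permutation p = 0.0037, adjusted 0.0596), a rho above that of Pax2 with Lmx1b, and r was 0.682 without the 2 libraries farthest from the median Pax2 level. For this pair r was 0.84 in males (exact permutation p = 0.0403, n = 6) and 0.946 in females (exact permutation p = 0.00417, n = 6). The next largest by the size of r after the called pairs were En2 with Gbx2 (r = -0.691, rho = -0.483, permutation p = 0.0236, adjusted 0.143) and En1 with Gbx2 (r = -0.688, rho = -0.615, permutation p = 0.0166, adjusted 0.143). Without the 2 libraries farthest from the median, r fell to -0.243 for En2 with Gbx2 and -0.439 for En1 with Gbx2.

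**Figure D2:**
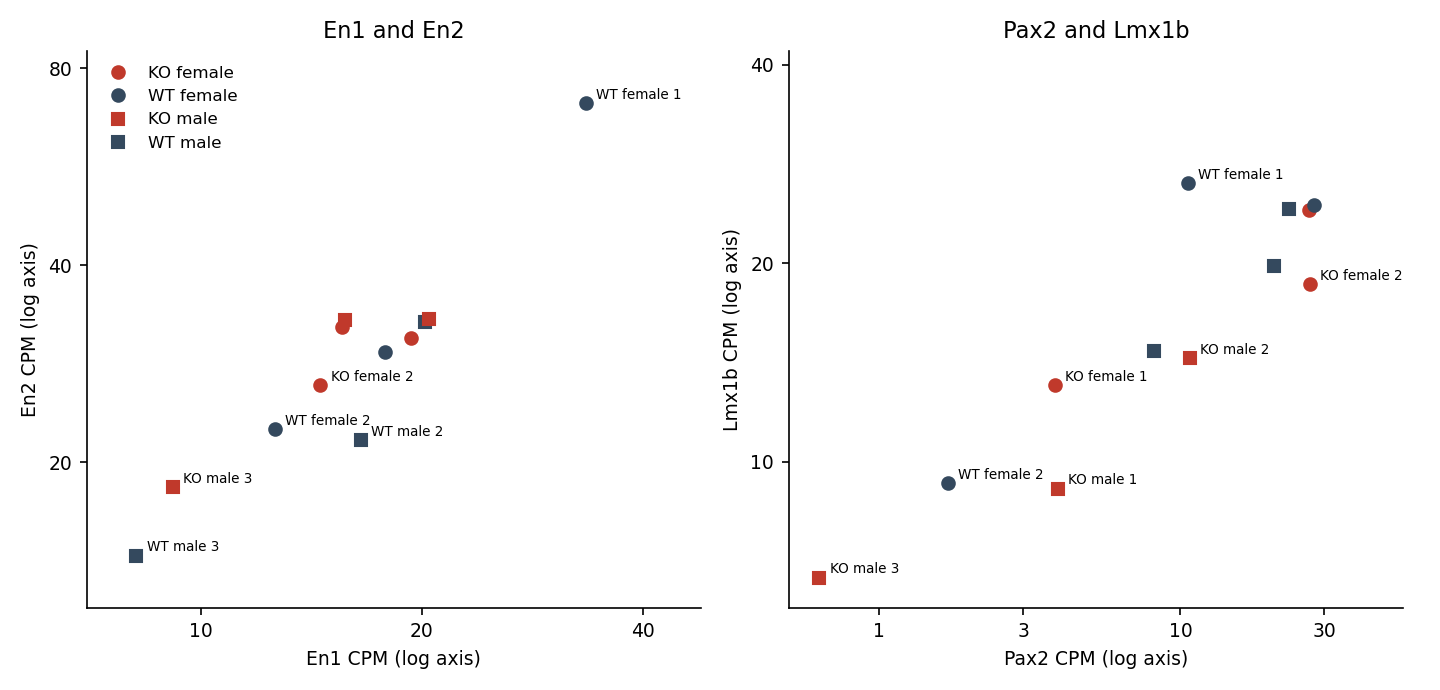
Level of En2 against En1 (left) and of Lmx1b against Pax2 (right) in CPM on log axes, 1 point per library. Red marks KO, dark blue WT, circles females and squares males, and some libraries are named. En1 and En2 lie along a line (r = 0.933) with WT female 1 at its upper end, and Pax2 and Lmx1b rise together (r = 0.912) with KO male 3 at the lower end.

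The promoter windows of Pax2 and Lmx1b are shown because these genes moved together. The Pax2 window is chr19:44755502-44755801 (plus strand), whose start lies 293 bases from the GENCODE gene start, and the Lmx1b window is chr2:33641049-33641348 (minus strand), whose start lies 587 bases from it, both GRCm38.p6 from RefSeq and written 5′ to 3′.
Pax2: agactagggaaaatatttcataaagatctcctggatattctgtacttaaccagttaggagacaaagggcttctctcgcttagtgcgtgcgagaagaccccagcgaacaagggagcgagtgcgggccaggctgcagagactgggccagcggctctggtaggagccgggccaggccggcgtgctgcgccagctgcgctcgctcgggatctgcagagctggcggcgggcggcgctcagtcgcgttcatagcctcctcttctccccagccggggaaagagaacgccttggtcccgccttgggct
Lmx1b: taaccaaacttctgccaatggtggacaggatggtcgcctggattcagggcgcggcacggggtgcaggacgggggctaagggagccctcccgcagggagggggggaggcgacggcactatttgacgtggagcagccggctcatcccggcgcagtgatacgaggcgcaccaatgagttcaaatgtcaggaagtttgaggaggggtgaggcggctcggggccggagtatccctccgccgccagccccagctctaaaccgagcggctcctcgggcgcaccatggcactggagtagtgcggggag
Neither holds capitals, since none of the 4 sets of letters searched on both strands occurs in them. These were TAATTA (homeodomain core, in 5.29% of the 32851 windows), TAATCC (OTX-type homeodomain, 7.06%), TGACAG (MEIS, 19.2%) and TGATTNAT (HOX with PBX, 3.22%), and matches of different sets may share bases. In all, 8 of the 9 genes matched a RefSeq window, En2 being the other. Of the 8 windows nearest an annotated start, 2 held TAATTA (Emx2 and Otx2), 1 held TGACAG (En1) and 0 held TAATCC or TGATTNAT. The start of that Otx2 window lies 6175 bases from the GENCODE gene start. Another Otx2 window, at chr14:48665060-48665359, held 3 TAATTA and 1 TAATCC.

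Atoh1, a basic helix-loop-helix factor of the rhombic lip, was the lowest of the 9 genes. It was at 0.4105, 4.06 and 3.02 CPM in KO females, against 2.69, 0 and 3.58 CPM in WT females. In males it was at 2.12, 2.875 and 1.075 CPM in KO, against 3.68, 4.88 and 2.255 CPM in WT. WT female 2 had 0 counts, which allows a level of up to 0.0743 CPM, and in males KO and WT overlapped, since KO male 2 lay above WT male 3. The log2 fold change was 0.24 (SE 1.35) in females and -0.83 (SE 0.401) in males, with edgeR adjusted p of 0.976 and 0.461.

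No regional factor passed the threshold between KO and WT. At an edgeR adjusted p under 0.05, 0 of the 9 genes were called in males (background 0.461% of 18671 genes tested), 0 in females (background 0.016% of 18709) and 0 over both sexes (background 1.89% of 19767). At an unadjusted p under 0.05 the count was 1 of 9 in males, namely Lmx1b (background 11.9%), 0 in females (background 7.47%) and 0 over both sexes (background 13.7%). DESeq2 called 1 in males, again Lmx1b, and 0 in females and over both sexes, and edgeR's likelihood ratio test called 0 in each. The median log2 fold change of the 9 genes over both sexes was -0.08, beside 0.002 over all genes tested. For the difference of the KO effect between males and females, 0 of the 9 passed in edgeR (background 0.0%) and 0 had an unadjusted p under 0.05 (background 4.45%). DESeq2 called 0 of the 9 for this difference, and 5 of all 19767 genes tested. These tests do not show that the levels were equal. The 95% interval over both sexes spanned -0.36 to 0.48 on the log2 scale for Emx2, the second narrowest after Emx1, and -2.66 to 1.45 for Pax2, the widest.

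**Figure D3:**
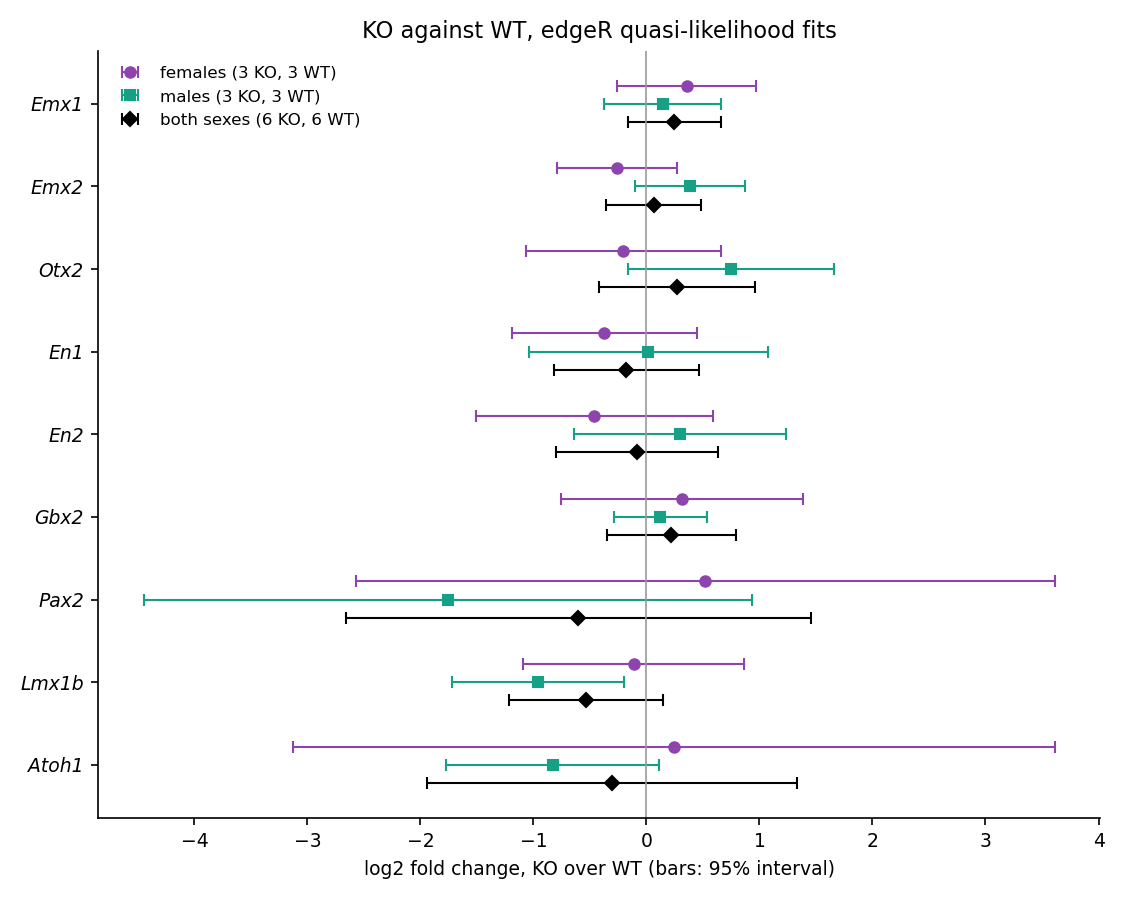
Log2 fold change of KO over WT (horizontal axis) for the 9 regional factors in females, males and both sexes, from edgeR quasi-likelihood fits. Bars are 95% intervals. Lmx1b in males (-0.96, interval -1.72 to -0.20) is the only interval that leaves out 0, and its adjusted p was 0.339.

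Set beside Hoxa5, the 9 genes fell into different orders. Pax2 was at 10.7 to 27.7 CPM in the 6 libraries with at least 1 CPM of Hoxa5, and at 0.631 to 10.6 CPM in the 6 libraries with less. It was the only one of the 9 whose ranges did not overlap between these libraries, and 0.698% of all genes tested had none (Hoxa5 left out). Lmx1b had a median of 21.95 CPM in those with at least 1 CPM of Hoxa5 and 11.2 CPM in those with less, but WT female 1, at 0.127 CPM of Hoxa5, had the highest Lmx1b of all at 26.4 CPM. Emx2 ran the other way, with 14.3 to 29.4 CPM (median 20.2) at the higher Hoxa5 levels and 22.1 to 31.65 CPM (median 27.2) at the lower ones. Emx1 had medians of 20.6 and 21.6 CPM, En1 of 16.05 and 17.5 CPM, and their ranges overlapped.

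Over all 12 libraries, with sex and genotype in the fit, Pax2 rose by 0.32 (SE 0.0534) on the log2 scale for each doubling of Hoxa5 and was the only 1 of the 9 called (edgeR adjusted p = 0.0345, background 1.37% of 19767 genes, 0.825% in the upward direction). Hoxa5 had 0 to 8 counts in KO male 3, WT female 2, KO male 1, WT female 1 and KO female 1, where the prior count of 2 weighs on its log2 level. It had 49 counts in WT male 1 and 741 to 3166 in the rest, so the levels between were hardly sampled. With Hoxa5 CPM on a linear scale, Pax2 was not called (edgeR adjusted p = 0.125). The slope on the log2 scale lay between 0.28 and 0.38 when any single library was left out, but the adjusted p lay between 0.0141 and 0.0847. The call was lost without KO female 2, WT female 3, KO male 1, KO male 2, KO male 3, WT male 2 or WT male 3. It was also lost in each sex alone, where the slope was 0.31 in males (edgeR adjusted p = 0.591) and 0.31 in females (edgeR adjusted p = 0.520). Without adjustment 3 of 9 had a p under 0.05 (background 19.3%), the others being Lmx1b with a slope of 0.10 (SE 0.0262, edgeR adjusted p = 0.0889) and Emx2 with a slope of -0.05 (SE 0.0176, edgeR adjusted p = 0.128). Lmx1b was called without WT female 1 (slope 0.13, edgeR adjusted p = 0.00239) and Emx2 without KO female 3 (slope -0.07, edgeR adjusted p = 0.0189). The other 6 genes had slopes between -0.05 and 0.16, with edgeR adjusted p of 0.310 for Atoh1, 0.345 for Gbx2 and over 0.5 for Emx1, Otx2, En1 and En2.

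**Figure D4:**
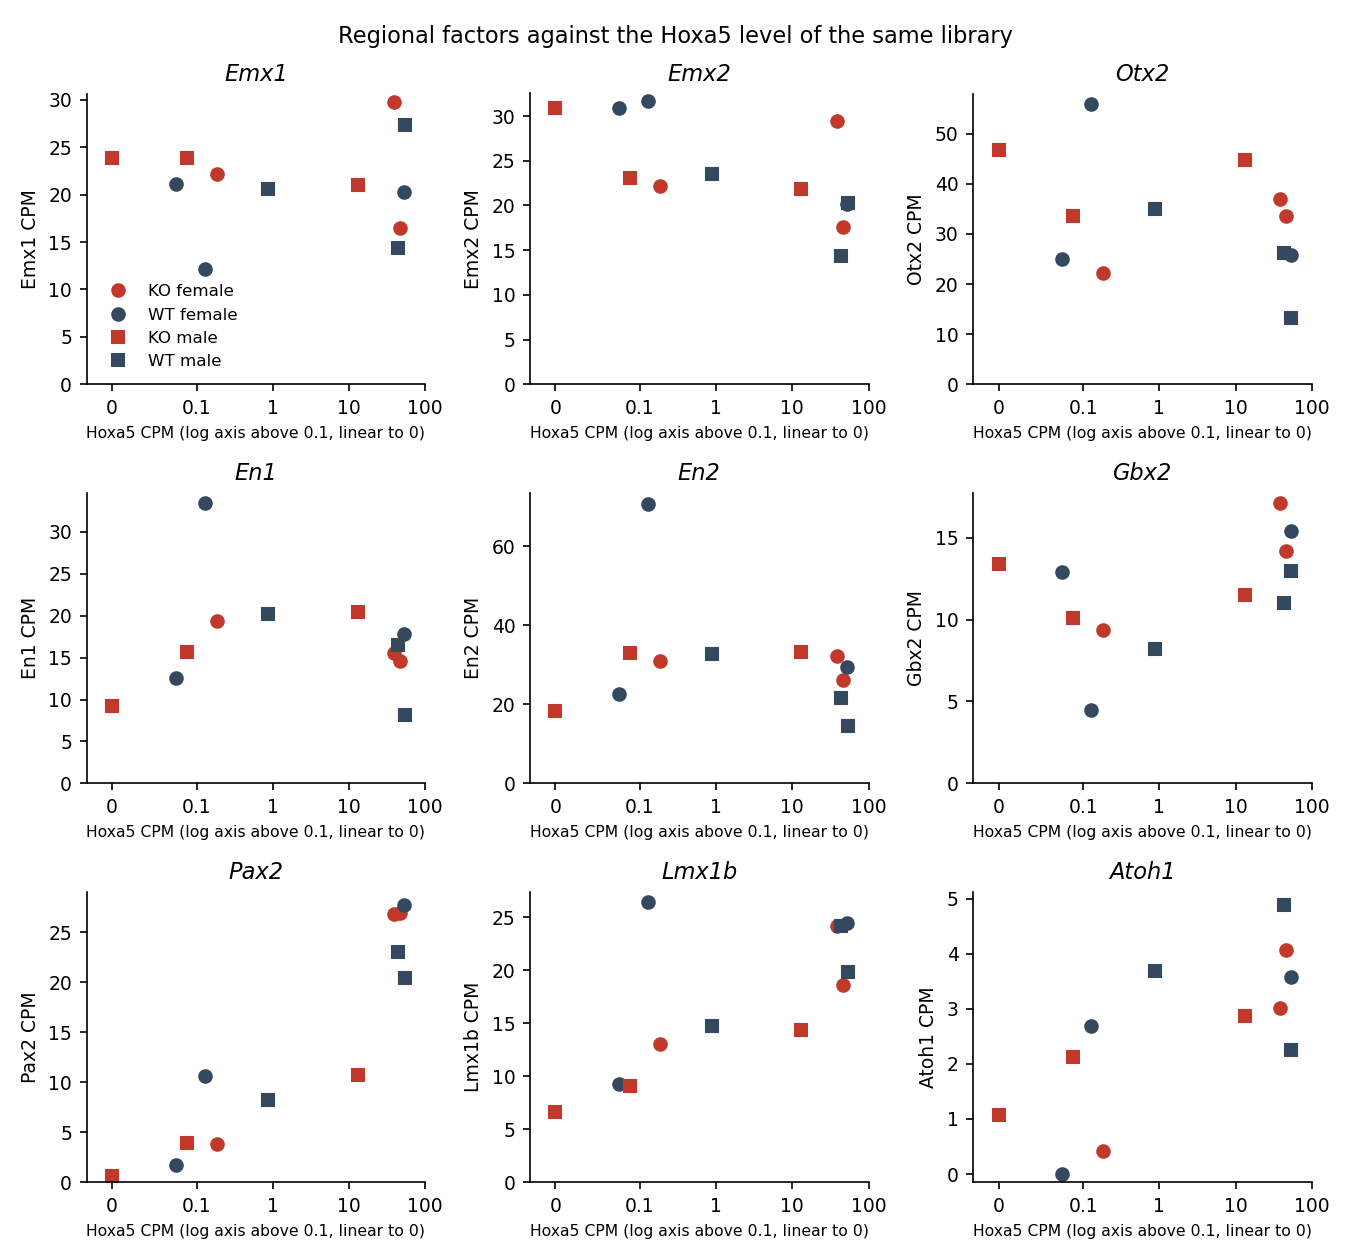
Level of each regional factor (vertical axes, CPM) against the Hoxa5 level of the same library (horizontal axes, CPM, logarithmic above 0.1 and linear down to 0). Points are the 12 libraries, red for KO and dark blue for WT, circles for females and squares for males. Pax2 is at 10.7 CPM or more in the 6 libraries with at least 1 CPM of Hoxa5 and at 10.6 CPM or less in the others, whereas Emx1 and En1 show no such order.

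KO and WT were also compared on each side of 1 CPM of Hoxa5, as alternatives to the fit over both sexes. These subsets did not match KO and WT in Hoxa5. At or above 1 CPM, Hoxa5 was at 13.15, 38.46 and 46.15 CPM in KO, against 43.59, 52.9 and 53.77 CPM in WT. Under 1 CPM, Hoxa5 was at 0, 0.0885 and 0.1824 CPM in KO, against 0.0754, 0.1271 and 0.8701 CPM in WT. In the 3 KO and 3 WT libraries under 1 CPM of Hoxa5 the log2 fold change was -1.27 for Pax2, -0.67 for Lmx1b and -0.32 for Otx2. In the 3 KO and 3 WT libraries at or above 1 CPM it was -0.53 for Pax2, -0.41 for Lmx1b and 0.81 for Otx2. For Atoh1 the values were -1.42 in the libraries under 1 CPM and -0.17 in the others, and for Emx1 0.32 and 0.10. The sign differed between the same sets of libraries for Otx2, for En1 (-0.47 and 0.24), En2 (-0.47 and 0.43), Emx2 (-0.14 and 0.27) and Gbx2 (0.33 and -0.02). These differences were not tested, and none of the 9 genes had an edgeR adjusted p under 0.05 in either. WT female 1 was 1 of the 3 WT libraries under 1 CPM of Hoxa5, and these fits were not repeated without it. There, Otx2 was at 55.86 CPM, against 25.01 CPM in WT female 2 and 34.95 CPM in WT male 1. En1 was at 33.45 against 12.62 and 20.19 CPM, and En2 at 70.75 against 22.49 and 32.73 CPM. Gbx2 was at 4.467 against 12.92 and 8.186 CPM, and Emx2 at 31.65 against 30.94 and 23.49 CPM. Markers of sensory ganglia, which lie beside the hindbrain and spinal cord, summed to 80.2 to 178.2 CPM at the higher Hoxa5 levels and 72.9 to 107.0 CPM at the lower ones. Of these 7 markers, 1 was called upward with Hoxa5 (background 0.825%): Prph, an intermediate filament of peripheral and some hindbrain neurons (slope 0.34, edgeR adjusted p = 0.0314). The slopes of the 7 markers lay between -0.08 and 0.34 (median 0.19), with 5 above 0. Their part in the Pax2 and Lmx1b values was not tested.

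The genes with the pattern most like each factor, by Pearson's r of log2 CPM over the 12 libraries, which share depth and tissue content, are given as a description. For Pax2 they were Meis1 (r = 0.981), a homeobox cofactor of HOX proteins, Lamp5 (0.976) and Slc6a5 (0.974), the glycine transporter of inhibitory neurons. Slc6a5 spanned 0.222 to 22.6 CPM, a range much like that of Pax2. For Lmx1b they were C130021I20Rik (0.989), Slc30a3 (0.955), a vesicular zinc transporter, and Tlx3 (0.946), a factor of excitatory dorsal neurons. For Otx2 they were Tfap2b (0.963), Pou4f2 (0.951) and Pcdh18 (0.949), and Tfap2b, a midbrain factor, spanned 40.6 to 411.3 CPM with its highest level in a WT library. For En1 they were En2 (0.933), Foxa2 (0.883) and Pitx3 (0.877), the last a marker of midbrain dopamine neurons, and for En2 Efna5 (0.935), En1 (0.933) and Irx3 (0.926). For Emx1 they were the cell cycle genes Fam64a (0.949), Cdc25c (0.945) and Cdca3 (0.944), and for Emx2 Epb4.1 (0.958), Smarca4 (0.944) and Smarcd1 (0.934), of which Smarca4 and Smarcd1 are subunits of the BAF chromatin remodeller. For Gbx2 they were Ecel1 (0.921), 2010110K18Rik (0.907) and Snapc2 (0.901), and for Atoh1 Shoc2 (0.949), Gngt2 (0.939) and Gm13483 (0.932). Gngt2, Gm13483 and 2010110K18Rik stayed under 1 CPM, where counts are too few to read much from a likeness.

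Other genes of the same regions were also compared between KO and WT over both sexes, where 1.89% of all genes tested were called. Of 18 other telencephalic factors, 0 were called over both sexes in edgeR, 16 had a log2 fold change above 0, and the median was 0.21, beside 0.002 over all genes. Bcl11b, a factor of deep-layer cortical and striatal neurons, was among the most abundant of them. Of 12 diencephalic genes (median -0.01) and 13 midbrain genes (median -0.10), 0 were called. Of 14 genes of the isthmic organizer and its FGF signal, 1 was called (background 1.89%): Etv5, a target of FGF signalling, was lower in KO, at 24.0 to 32.05 CPM (median 30.35) against 31.1 to 42.4 CPM in WT (median 37.65), with a log2 fold change of -0.34 (SE 0.0632, edgeR adjusted p = 0.0137). The 14 genes had a median of -0.06. Of 17 rhombic lip and cerebellar genes (median 0.04) and 14 hindbrain and serotonin neuron genes (median -0.42), 0 were called. At an unadjusted p under 0.05 the counts over both sexes were 0 telencephalic, 0 diencephalic, 0 midbrain, 4 isthmic, 4 rhombic lip and 2 hindbrain genes, against the background of 13.7%.

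Against the Hoxa5 level, 4 of the 14 hindbrain genes were called upward (background 0.825%), with Tlx3 at a slope of 0.23 (edgeR adjusted p = 0.00225), Phox2a at 0.21 (edgeR adjusted p = 0.00841) and Lbx1 among them. Pax8, a relative of Pax2, was the 1 isthmic gene called upward (slope 0.24, edgeR adjusted p = 5.03e-05), and Cbln1, a cerebellar granule cell gene, the 1 of the rhombic lip genes (slope 0.06, edgeR adjusted p = 0.0324). Of the 20 Hox genes of paralogue groups 2 to 8, 18 were called upward, which the use of Hoxa5 as the measure fixes in part. In the telencephalic, diencephalic and midbrain lists 0 were called in edgeR, 4 of 18, 3 of 12 and 2 of 13 had an unadjusted p under 0.05 (background 19.3%), and the median slopes were -0.03, -0.02 and -0.06.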

How the data were processed

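RNA-seq was performed on E15.5 brains of Nsd2 KO and WT mice, 3 females and 3 males of each genotype (n = 3 mice a group in the methods), so p-values cover the spread between these libraries. The deposited values are read counts per gene, not normalized. The authors depleted ribosomal RNA, used a kit that keeps strand, trimmed the reads (FASTX-toolkit, then cutadapt 2.6 for adapters), mapped them to mm10 (GRCm38) by HISAT2 2.1.0 and quantified Ensembl transcripts with StringTie 2.0.6, whose script turned coverage into whole counts. The strand setting of the counting was not stated. In all, 2 depletion kits and 2 sequencers were used, and the labels do not say which library had which, so no batch could be split off. No filter on genes was stated.

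KO was compared with WT per sex, over both sexes with sex as a term, and for a sex difference, with edgeR 4.0.16 in R 4.3.3 (TMM, filterByExpr at 10 counts and 15 in total, robust quasi-likelihood F test) on all genes, calling genes at a Benjamini-Hochberg adjusted p under 0.05. The same test took the slope on log2 CPM of Hoxa5 (prior count 2). Correlations used 100000 permutations, or all orders for n = 6. The members and gene lists were chosen with earlier results of these data known. Text names all 9 genes, Whsc1, Hoxa5, the 3 nearest genes of each, and of each list up to 3 called genes or else the 2 most abundant; Tyr, Lbx1 and library extremes were named after their values were seen. A few genes that this rule names are not reported here. Alternatives were RLE scaling, DESeq2 1.42.0, the likelihood ratio test, other filters, the replicate number as a block, each library left out, Hoxa5 as a covariate and subsets by Hoxa5. Totals of 40398665 to 59304196 counts set the precision, and limits from 0 counts cover counting error only. Whsc1 was left out of background counts.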

Additional observations from a re-analysis of the deposited data

Results flagged for a closer look

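En2 was at 18.3 to 33.1 CPM in the 6 KO libraries and at 14.4 to 32.7 CPM in 5 WT libraries, while the remaining WT library, WT female 1, lay far above both at 70.75 CPM. The gap test used here marks about 1 in 20 groups of such values by chance, and 9 genes were looked at in each genotype. En1 in the same library, at 33.45 CPM, was the highest of the 12 as well, and the log2 fold change of En2 over both sexes was -0.08 with WT female 1 and 0.25 without it.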

How the results depend on the processing

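Over 810 values of the 9 genes under alternatives, 0 reversed a call, 11 lost one and 6 gained one, and 43 changed sign with no call in either setting. Among the 612 values of KO against WT and of the sex difference, 1 was called, Lmx1b in males with DESeq2, which raised the male count of the 9 genes to 1. The count of the 9 genes called for the Hoxa5 slope (1) was 0 with Hoxa5 on a linear scale, in male libraries alone, in female libraries alone and with the replicate block, 2 with the likelihood ratio test, 3 with DESeq2 and 0 to 2 with a library left out. The single-sex slopes were chosen after seeing the data.

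Counts over all genes moved more. In males (86) they were 483 with DESeq2, 339 with the likelihood ratio test, 24 with the Hoxa5 covariate, 289 with the replicate block and 21 to 113 with a library left out. In females (3) they were 179, 93, 1 and 0 in the same order, 6 without a filter, 37 with the spread taken over 12 libraries and 0 to 38 with a library left out. Over both sexes (374) they were 805 with DESeq2, 37 in libraries under 1 CPM of Hoxa5, 11 in those at or above it and 200 to 383 with a library left out. For the slope (270) they were 56 on a linear scale, 1430 with DESeq2, 630 with the likelihood ratio test, 440 at over 1 CPM in 3 libraries, 176 without a filter, 23 in females, 10 in males, 42 with the replicate block and 51 to 1287 with a library left out. The cause of these shifts was not tested. Whether replicate numbers pair the samples was not tested. Same-numbered deviations correlated at 0.051, -0.053 and 0.195 in females and 0.028, 0.185 and -0.044 in males. Those with different numbers lay between -0.225 and 0.212 in females and between -0.129 and 0.116 in males. With the replicate block the Pax2 slope was 0.45 (edgeR adjusted p = 0.0802). Atoh1 was under 5 CPM in every library.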
